A study of Mus musculus with 24 samples.

Results

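Quadriceps muscle of old dystrophin-mutant mice was compared with that of old wild-type mice. The 3 delEx44 libraries at 18 months were set against the 3 WT libraries at 18 months, 6 of the 24 libraries in the series. Both groups were sedentary mice on a C57BL/6 background; delEx44 mice lack exon 44 of the dystrophin gene, Dmd, on an otherwise shared background. Libraries were picked by the genotype and age in their labels and by the matching columns of the 18-month count table. The treatment text attached to every 18-month sample describes a vector injection on postnatal day 4 for the corrected group, and it does not say what delEx44 and WT mice received. The corrected group at 18 months, delEx44 mice injected with AAV9-packaged SpCas9 and sgRNA (3 libraries), was not compared here. It entered the estimate of spread, the filter on low counts and the scaling of libraries. Sedentary delEx44 and WT mice at 4 weeks, 3 libraries each, served to ask which differences depended on age. The 3 corrected libraries at 4 weeks were not compared either, but they entered the fit across both ages, which held 18 sedentary libraries. The vector doses listed for corrected mice differ between 4 weeks and 18 months. Each library is listed as a separate sample, and the labels do not state litters, sex or whether tissue was pooled, so p-values measure the spread between these samples.

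Dystrophin ties the actin cytoskeleton of the muscle fibre, through the dystroglycan and sarcoglycan proteins of its membrane, to the matrix outside. Fibres without it tear during contraction, degenerate and regenerate from satellite cells, and the cycle brings in macrophages and other immune cells. With age, dystrophic muscle is known for fibre loss with replacement by fibrous and fatty tissue. RNA from whole muscle mixes all of these cells: a lower level of a transcript from fewer cells of a type and one from less RNA per cell cannot be told apart.

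Counts assigned to genes numbered 28350379, 27955287 and 26541202 in delEx44 and 30784450, 31254175 and 23125930 in WT libraries. The ribosomal transcript Rn45s took 3.87%, 3.4% and 4.33% of these counts in delEx44 and 6.19%, 0.755% and 2.4% in WT libraries, and its groups overlapped. Correlation of log2 levels over all genes tested was 0.991 to 0.995 within a genotype and 0.948 to 0.959 between them. The 20 most abundant genes held 17.9% to 19.5% of counts in delEx44 and 23.3% to 28.6% in WT libraries, and TMM scaling factors were 1.12 to 1.18 in delEx44 and 0.898 to 0.964 in WT. Skeletal muscle actin, Acta1, stood at 12040, 13920 and 12690 CPM (a gene's counts relative to the library total, after TMM scaling) in delEx44 and at 21390, 19270 and 17840 CPM in WT libraries, so muscle transcripts were abundant in every library. In the comparison with 4 weeks, WT replicate 3 of that age stood apart from WT replicates 1 and 2. Col2a1, a cartilage collagen, read 8.28, 6.91 and 186 CPM in the 4-week WT replicates, and Slc4a1, the red cell anion exchanger, read 0.162, 0.37 and 31.8 CPM. Adipocyte values at 4 weeks are given with and without that library.

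Dmd transcript was low in every mutant library. It measured 86.2, 86.7 and 84.2 CPM in delEx44 and 337, 349.8 and 425 CPM in WT libraries (chrX:82948870-85206141, plus strand, GRCm38), with no overlap. The mutant level was 23.1% of WT, a log2 change of -2.11 ± 0.17 (SE, n = 3 each, adjusted p = 2.21e-05, edgeR quasi-likelihood test). This SE, like those below, comes from the model fit and draws on the spread of the corrected libraries too. Exon 44 of the 79-exon transcript Dmd-203 lies at chrX:84022265-84022412 on the plus strand and spans 148 bases, 1 more than a multiple of 3. The deleted exon is shown because its length sets the reading frame of exon 43 joined to exon 45; it was read from the GENCODE vM21 transcript.
Dmd exon 44: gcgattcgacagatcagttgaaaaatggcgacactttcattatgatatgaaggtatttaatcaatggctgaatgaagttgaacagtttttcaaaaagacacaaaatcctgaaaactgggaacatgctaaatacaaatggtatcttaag

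The remaining members of the dystrophin-associated complex divided. Of 22 measured genes in this list 8 were higher and 9 lower in delEx44, where 28.8% of the 14337 genes tested were higher and 23.8% lower (adjusted p under 0.05). The median member stood at -0.19 on the log2 scale, against 0.05 over all genes tested. Utrn, encoding utrophin, the autosomal relative of dystrophin, measured 164, 148 and 159 CPM in delEx44 and 128, 121 and 128 CPM in WT libraries (log2 0.32 ± 0.06, adjusted p = 0.00192). Nos1, the neuronal nitric oxide synthase that binds the complex through syntrophin, measured 12.7, 17.8 and 16.8 CPM in delEx44 and 86.8, 72.6 and 70.1 CPM in WT libraries. It fell by 2.28 on the log2 scale (SE 0.16, adjusted p = 1.07e-05), and the groups lay far apart. The dystroglycan gene Dag1 and the sarcoglycan gene Sgcd fell by 0.47 and 0.56 on the log2 scale, while the syntrophin gene Sntb1 rose by 1.13. The list's median moved to the other side of zero when libraries were scaled by their totals alone (10 higher, 5 lower, median 0.12).

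Over the whole transcriptome, 4131 genes were higher and 3418 lower in delEx44 (52.7% of those tested), and 1657 (11.6%) rose and 470 (3.28%) fell by at least 1 log2 unit. The 3 delEx44 and 3 WT libraries did not overlap for 9488 genes (66.2%), with delEx44 above for 36.3% and below for 29.8% of the genes tested. Among the genes that were higher or lower, 54.7% were higher with TMM scaling and 85.2% with library totals alone, which also raised the median of all genes to 0.35. Changes below are relative to the TMM centre.

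The largest rises included genes nearly silent in WT muscle. Cdkn2a, which encodes the cell cycle inhibitors p16INK4a and p19ARF and is widely used as a mark of senescent cells, measured 9.22, 9.97 and 8.74 CPM in delEx44 libraries and 0.0362, 0 and 0.142 CPM in WT libraries (chr4:89274471-89294653, minus strand). That is 883 counts in the delEx44 libraries against 4 in the WT libraries, a scaled ratio of 184 with an exact 95% interval of 71.5 to 676 that covers counting error only (adjusted p = 0.000835). Sln, encoding sarcolipin, a small inhibitor of the sarcoplasmic reticulum calcium pump, measured 177, 170.2 and 153 CPM in delEx44 and 3.55, 3.55 and 3.93 CPM in WT libraries (chr9:53850164-53854560, plus strand). It rose by 5.51 ± 0.22 on the log2 scale (SE, n = 3 each; adjusted p = 2.24e-06). For both genes every delEx44 library lay far above every WT library.

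Has1, a hyaluronan synthase, was more variable. It read 26.4, 4.54 and 15.3 CPM in delEx44 and 0.326, 0.199 and 0.332 CPM in WT libraries, with replicate 2 the lowest mutant, and its log2 rise of 5.76 had an SE of 0.77 (adjusted p = 0.00063, 0.0526 in the alternative where it no longer passed). Tmem8c, now called Mymk, encodes myomaker, the membrane protein that lets myoblasts fuse. It measured 8.92, 7.13 and 7.25 CPM in delEx44 and 0.434, 0.166 and 0.142 CPM in WT libraries (log2 4.92 ± 0.48). Among the other leading rises, the chemokine gene Ccl7 (log2 4.78) attracts monocytes, and Socs3 (log2 4.33) is the feedback inhibitor of cytokine signalling through STAT3. Krt18 and Krt8 (log2 4.52 and 4.28) encode a keratin pair of simple epithelia, Egr2 and Sox11 (log2 4.35 and 4.56) encode transcription factors, and Glipr1 (log2 4.3) completed the 12. Socs3 measured 109, 74.9 and 88.9 CPM in delEx44 against 4.45, 4.71 and 4.36 CPM in WT libraries.

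**Figure D1:**
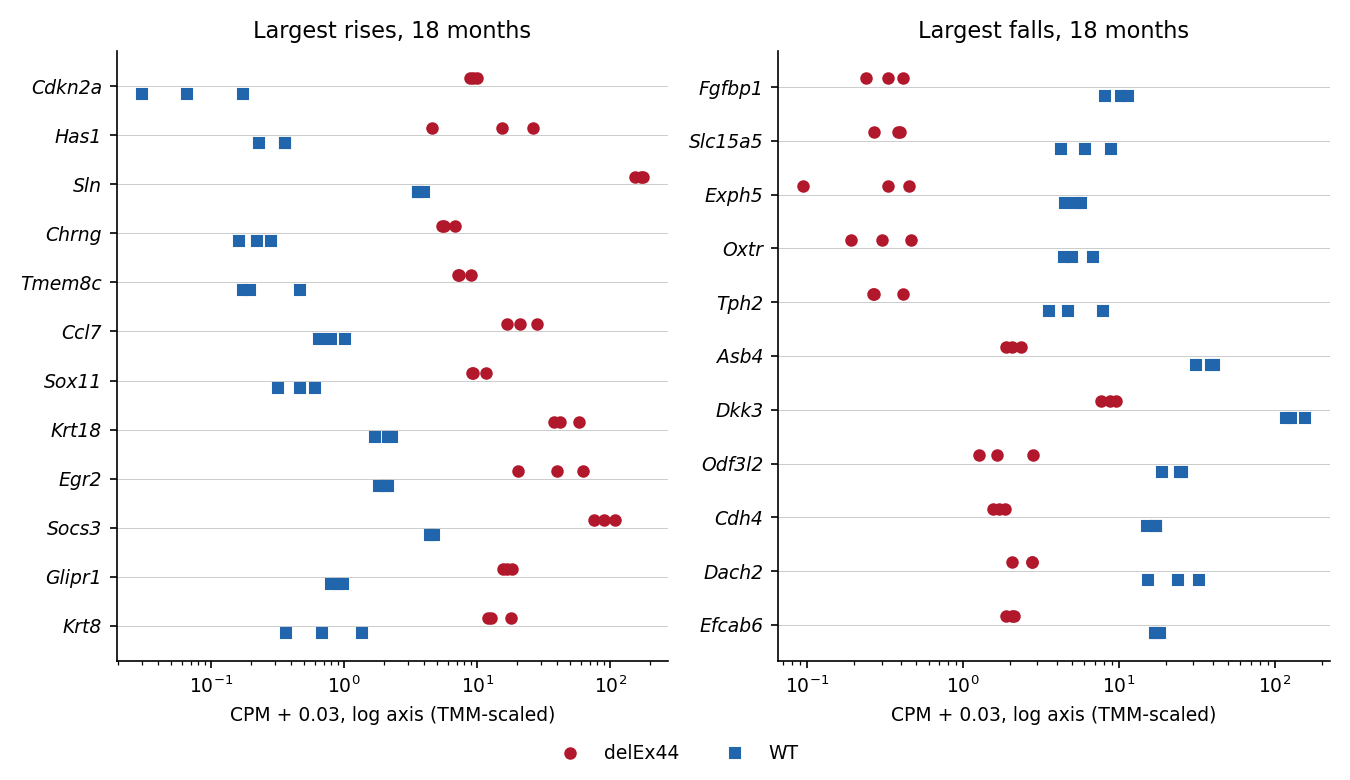
Levels of 12 genes with the largest rises and 11 with the largest falls, in CPM plus 0.03 on a log axis, for each delEx44 library (circles, upper) and each WT library (squares, lower) at 18 months. No gene overlapped between the groups, as the choice required; Sln stood at 153 to 177 CPM in delEx44 and 3.55 to 3.93 CPM in WT libraries, and Dkk3 at 7.61 to 9.52 CPM in delEx44 and 117 to 156 CPM in WT libraries.

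The largest falls were led by Fgfbp1, encoding a secreted carrier of fibroblast growth factors. It measured 0.210, 0.384 and 0.299 CPM in delEx44 and 8.14, 10.3 and 11.5 CPM in WT libraries (chr5:43978858-43981779, minus strand) and fell by 5.05 ± 0.30 on the log2 scale (SE, n = 3 each; adjusted p = 3.20e-06). Dkk3, a secreted protein of the Dickkopf family, was abundant in WT muscle: 9.52, 7.61 and 8.74 CPM in delEx44 and 117, 127 and 156 CPM in WT libraries (log2 -3.95 ± 0.59, adjusted p = 0.00134). Asb4, a substrate receptor of a ubiquitin ligase, measured 2.31, 2.01 and 1.86 CPM in delEx44 and 31.3, 39.1 and 40.5 CPM in WT libraries (log2 -4.16). Each of these WT groups was tight, and each delEx44 group lay at a small fraction of it. Cdh4 (R-cadherin, log2 -3.29), Dach2 (a transcription factor, log2 -3.26) and Efcab6 (log2 -3.14) also fell. So did Slc15a5 (log2 -4.31), Exph5 (log2 -4.28), Odf3l2 (log2 -3.61), Oxtr (the oxytocin receptor, log2 -4.21) and Tph2 (a tryptophan hydroxylase, log2 -4.20). For Oxtr and Tph2 the adjusted p was 0.0207 and 0.0129, and it reached 0.0709 and 0.0519 among the alternatives.

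Genes of embryonic muscle and of regenerating fibres were higher in delEx44 at 18 months. Of 21 in this list 16 were higher and 3 lower (median log2 2.24), and the summed level was 2690 to 2784 CPM in delEx44 and 712 to 756 CPM in WT libraries. Myh8, the perinatal myosin heavy chain, measured 69.9, 57.7 and 58.4 CPM in delEx44 and 9.48, 9.63 and 10.4 CPM in WT libraries (log2 2.66 ± 0.12, adjusted p = 1.17e-06). Tnnt2, the cardiac and embryonic troponin T, measured 30.4, 25.5 and 26.2 CPM in delEx44 and 3.94, 3.12 and 3.41 CPM in WT libraries (log2 2.97). Both genes were separated by a wide gap with little spread on either side. H19, an imprinted long noncoding RNA of fetal tissue, was the most abundant of those named, at 1339, 1318 and 1298 CPM in delEx44 and 329, 328 and 337 CPM in WT libraries (log2 1.99). The 3 lower members were Mybph, Cdh15 and Mest, and between 0 and 4 members were lower across the alternatives.

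Few satellite cell markers passed, where 28.8% of all genes tested were higher and 23.8% lower in delEx44. Of 17 genes of satellite cells and the myogenic programme 3 were higher and 2 lower (median log2 -0.08; 6, 0 and 0.23 with library totals alone). Myod1, which commits these cells to muscle, measured 30.6, 22 and 29.0 CPM in delEx44 and 13.5, 13.3 and 10.4 CPM in WT libraries (log2 1.13, adjusted p = 0.000278). Itga7 and Sdc4 also rose, by 0.29 and 0.83, and Cdh15 was the other lower member. Calcr, the calcitonin receptor of quiescent satellite cells, fell by 1.12, with adjusted p = 0.0291 and up to 0.125 among the alternatives. Pax7, the defining satellite cell factor, measured 1.41, 2.17 and 1.40 CPM in delEx44 and 2.28, 2.23 and 2.04 CPM in WT libraries (log2 -0.40 ± 0.21, adjusted p = 0.137); Pax7 was read after its values were seen.

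The acetylcholine receptor of muscle is built of 5 subunits, and innervation normally keeps it to the junction and replaces the fetal gamma subunit (Chrng) by the adult epsilon subunit (Chrne). Of 20 genes of the receptor and the neuromuscular junction 14 were higher and 2 lower in delEx44 (median log2 0.53). Chrng measured 6.83, 5.43 and 5.62 CPM in delEx44 and 0.253, 0.133 and 0.189 CPM in WT libraries (log2 4.94 ± 0.35, adjusted p = 6.45e-06). Chrna1, the alpha subunit, measured 127, 97.0 and 100.1 CPM in delEx44 and 19.1, 19.9 and 19.6 CPM in WT libraries (log2 2.47 ± 0.15), and Chrnd, the delta subunit, measured 26.8, 22.2 and 22.3 CPM in delEx44 and 3.22, 3.49 and 3.5 CPM in WT libraries (log2 2.81 ± 0.12, adjusted p = 1.05e-06). The groups were far apart for all 3 subunits, with delEx44 replicate 1 the highest mutant each time.

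The beta and epsilon subunits, added here after their values were seen, moved less. Chrnb1 measured 58.0, 54.8 and 53.3 CPM in delEx44 and 28.7, 30.3 and 35.2 CPM in WT libraries (log2 0.82 ± 0.11, adjusted p = 0.000226). Chrne measured 13.8, 13.4 and 13.0 CPM in delEx44 and 11.5, 12.2 and 12.3 CPM in WT libraries, a log2 difference of 0.16 ± 0.12 that did not pass (adjusted p = 0.281). Scn4a, the sodium channel of mature fibres, fell by 1.37 ± 0.09. At 4 weeks Chrng differed by 4.24, Chrna1 by 1.66, Chrnd by 1.85 and Chrnb1 by 0.41 on the log2 scale, while Chrne, lower there, differed by -0.42 (adjusted p = 0.0027). The difference between the ages did not pass for Chrng (adjusted p = 0.586), Chrna1 (adjusted p = 0.0972) or Chrnd (adjusted p = 0.0509). Without 4-week delEx44 replicate 1 it passed for Chrna1 (1.11, adjusted p = 0.00201) and Chrnd (1.25, adjusted p = 0.00139), and by DESeq2 for both (adjusted p = 0.0461 and 0.0344). For Chrnd it also passed without a filter on low counts, without Rn45s and without 4-week WT replicate 1.

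The promoters of these subunits are known to bind the myogenic factors, which recognise E-box sequences. The 250 bases before the RefSeq start (GRCm38.p6) are printed for the subunit with the largest change, for the alpha subunit and for the epsilon subunit that did not pass, with matches to either of 2 E-boxes in capitals. One E-box is CAGCTG on both strands. The other E-box is CACCTG, which reads CAGGTG on the opposite strand. The windows are chr1:87205561-87205810 on the plus strand for Chrng, chr2:73580339-73580588 on the minus strand for Chrna1 and chr11:70619195-70619444 on the minus strand for Chrne. GENCODE vM21 places the start of Chrng farther upstream, at 87204657, so by that annotation its window lies inside the gene. The Chrne window also overlaps the GENCODE gene, which starts at 70619216.
Chrng promoter: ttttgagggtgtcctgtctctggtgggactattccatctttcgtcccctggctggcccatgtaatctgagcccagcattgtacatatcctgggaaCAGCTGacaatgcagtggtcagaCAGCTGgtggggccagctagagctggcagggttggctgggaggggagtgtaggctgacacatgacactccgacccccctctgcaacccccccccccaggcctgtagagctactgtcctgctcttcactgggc
Chrna1 promoter: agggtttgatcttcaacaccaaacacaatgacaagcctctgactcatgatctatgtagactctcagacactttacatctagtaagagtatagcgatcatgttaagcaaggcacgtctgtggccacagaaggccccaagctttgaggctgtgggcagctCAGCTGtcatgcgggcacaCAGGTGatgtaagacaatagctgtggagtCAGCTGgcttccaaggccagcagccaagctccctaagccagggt
Chrne promoter: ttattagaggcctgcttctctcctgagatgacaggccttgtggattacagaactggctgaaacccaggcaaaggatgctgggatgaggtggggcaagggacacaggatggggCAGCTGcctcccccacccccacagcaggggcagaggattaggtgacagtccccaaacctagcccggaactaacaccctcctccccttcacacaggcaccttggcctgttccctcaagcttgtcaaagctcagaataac
The table held 4 of the 5 subunit genes, all but Chrnd. The Chrng window held 2 such matches and that of Chrna1 held 3, while the windows of Chrnb1 and Chrne held 1 each. Of 32851 promoter windows of this length in the table, 27.7% held at least 1 match, 5.21% at least 2 and 0.895% at least 3. A match gives only the letters and is no record of binding.

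**Figure D2:**
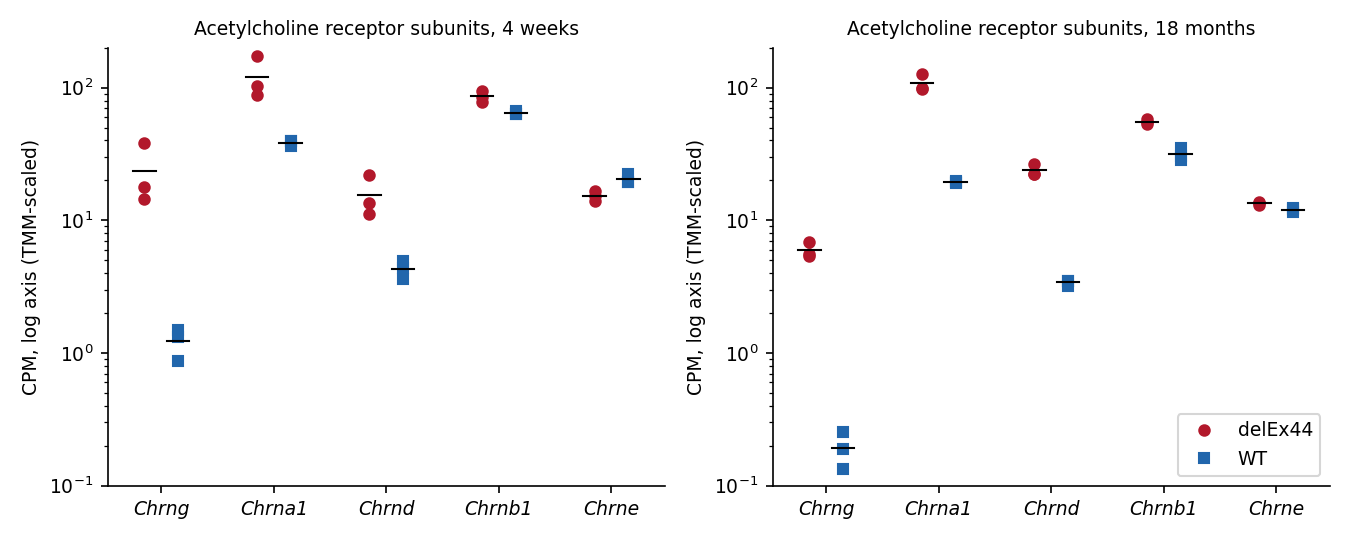
Levels of the 5 acetylcholine receptor subunit genes in CPM on a log axis, at 4 weeks (left) and 18 months (right), with 3 delEx44 libraries (circles) left of 3 WT libraries (squares) and a bar at each mean. At 18 months Chrng stood at 5.43 to 6.83 CPM in delEx44 and 0.133 to 0.253 CPM in WT libraries, while Chrne stood at 13.0 to 13.8 CPM in delEx44 and 11.5 to 12.3 CPM in WT libraries.

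The mature contractile programme was lower. Of 17 fast fibre sarcomere genes 13 were lower and 0 higher (median log2 -0.84), and their summed level was 89620 to 108300 CPM in delEx44 and 188800 to 199900 CPM in WT libraries. Myh4, the fastest myosin heavy chain (IIb) and a main component of mouse quadriceps, measured 12080, 17560 and 16760 CPM in delEx44 and 54150, 48520 and 56690 CPM in WT libraries (log2 -1.78 ± 0.14, adjusted p = 1.42e-05). Mylk2, the skeletal myosin light chain kinase, fell by 1.71, Mybpc2, fast myosin-binding protein C, by 1.35 and Tpm1, alpha tropomyosin, by 0.98 on the log2 scale. Of 15 slow fibre genes 1 was higher and 0 lower, where 28.8% of all genes tested were higher and 23.8% lower. The higher gene was Smtnl1 (log2 0.83, adjusted p = 0.00507). With delEx44 and WT libraries alone in the fit, 5 slow fibre genes were higher and 4 lower.

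Calcium handling genes were mostly lower as well. Of 18 genes 12 were lower and 2 higher (median log2 -0.56; 9 lower and 6 higher with library totals alone). Ryr1, the calcium release channel, measured 2003, 2353 and 2126 CPM in delEx44 and 4485, 4036 and 4177 CPM in WT libraries (log2 -0.97 ± 0.09, adjusted p = 2.16e-05). Jph1, which holds the release channels against the transverse tubules, and Stac3, which couples the voltage sensor to them, fell by 1.15 and 1.12. The 2 that rose both inhibit the calcium pump: sarcolipin, described above, and Pln, phospholamban, at 23.5, 18.1 and 23 CPM in delEx44 and 6.95, 5.45 and 8.48 CPM in WT libraries (log2 1.64; named after its value was seen as the other riser).

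Macrophage and monocyte transcripts were raised across almost the whole list. Of 26 genes 23 were higher and 0 lower (median log2 1.88), with a summed level of 1395 to 1460 CPM in delEx44 and 354 to 464 CPM in WT libraries. Cd53, a leukocyte tetraspanin, measured 41.2, 39.5 and 39.9 CPM in delEx44 and 10.6, 11 and 8.57 CPM in WT libraries (log2 2.00 ± 0.41, adjusted p = 0.00547). Fcgr3, an Fc receptor for IgG, rose by 1.94 and Cd14, the co-receptor for lipopolysaccharide, by 1.80. Of 16 resident-type macrophage genes 12 were higher and 0 lower, with Lyve1 at 64.5, 82.1 and 67.3 CPM in delEx44 and 29.4, 31.9 and 32.4 CPM in WT libraries (log2 1.19) and with Sepp1, Igf1 and Gas6 at log2 1.06, 1.36 and 0.61. Of 16 lipid-associated phagocyte genes 13 were higher and 0 lower, and the smallest p-values belonged to Cd9, Ctsk, Plin2 and Cd63 (log2 0.90, 2.35, 0.68 and 0.54). The summed level of this list overlapped, at 3727 to 4236 CPM in delEx44 and 3785 to 4609 CPM in WT libraries.

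Complement and chemokine genes rose with them. Of 19 complement genes and receptors 17 were higher and 0 lower (median log2 1.45). Serping1, the C1 inhibitor, measured 326, 286 and 301 CPM in delEx44 and 151, 147 and 127 CPM in WT libraries (log2 1.10 ± 0.13, adjusted p = 0.000107), and C2 and C1s1 rose by 1.54 and 1.13. Of 22 chemokines and their receptors 16 were higher and 0 lower (median log2 2.01), or 10 higher without WT replicate 2 or without WT replicate 3. Ccl6 measured 92.4, 131 and 110.3 CPM in delEx44 and 24.0, 26.9 and 28.1 CPM in WT libraries (log2 2.08), while Cxcl14, Cxcr4 and Ccl5 rose by 1.26, 1.07 and 2.44.

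Lymphocyte and antigen-presentation genes were also higher. Of 21 T cell and killer cell genes 15 were higher and 1 lower (median log2 1.97), with sums of 48.1 to 63.5 CPM in delEx44 and 25.9 to 38.3 CPM in WT libraries. Klrk1, the activating receptor NKG2D, measured 3.71, 4.99 and 2.39 CPM in delEx44 and 1.34, 0.764 and 0.473 CPM in WT libraries (log2 2.08), and Klrd1, Zap70 and Cd2 rose by 2.07, 2.15 and 1.97. The lower member was Cd28 (log2 -0.38). All 15 MHC class II and dendritic cell genes tested were higher (median log2 1.63), with sums of 719 to 951 CPM in delEx44 and 185 to 363 CPM in WT libraries, but 5 passed without WT replicate 2, WT replicate 3 or delEx44 replicate 2. Cd83, a maturation marker of dendritic cells, measured 36.5, 30.3 and 29.8 CPM in delEx44 and 5.14, 4.78 and 3.79 CPM in WT libraries (log2 2.81 ± 0.33, adjusted p = 0.000255); Cd80, Cd86 and Flt3 rose by 3.22, 1.57 and 1.77. Of 9 B cell and plasma cell genes 7 were higher and 0 lower, among them Ms4a1 at 1.17, 1.28 and 1.03 CPM in delEx44 and 0.362, 0.199 and 0.142 CPM in WT libraries (log2 2.26), Fcrla (log2 2.07), Xbp1 (log2 0.82) and Sdc1 (log2 0.74). Of 15 neutrophil and mast cell genes 10 were higher and 0 lower. The 4 with the smallest p-values, Cma1, Tpsb2, Cpa3 and Kit, are mast cell genes (log2 1.57, 1.39, 1.64 and 1.04), and Cpa3 measured 30.2, 26.0 and 32.6 CPM in delEx44 and 8.83, 10.8 and 8.76 CPM in WT libraries.

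Interferon-stimulated genes were the immune list whose count depended most on the model. Of 30 genes 11 were higher and 0 lower (median log2 1.19). The count was 30 with delEx44 and WT libraries alone in the fit, 21 with DESeq2 and 5 or 6 without delEx44 replicate 1 or any 1 of the WT replicates. Mx1, an antiviral GTPase, measured 3.65, 3.20 and 3.59 CPM in delEx44 and 0.651, 0.498 and 0.568 CPM in WT libraries (log2 2.60 ± 0.65, adjusted p = 0.0101), and Ifi35, Oas2 and Oasl1 rose by 0.75, 1.37 and 2.3. Of 16 MHC class I and immunoproteasome genes 7 were higher and 0 lower, or 14 higher with delEx44 and WT libraries alone and 3 without WT replicate 2, WT replicate 3 or delEx44 replicate 1 and 4 without delEx44 replicate 2. B2m, the light chain of class I molecules, measured 447, 441 and 416 CPM in delEx44 and 234, 202 and 212 CPM in WT libraries (log2 1.01), and H2-D1, H2-K1 and H2-Q4 rose by 1.28, 1.12 and 1.03.

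Matrix genes were higher in delEx44. Of 22 collagen genes 16 were higher and 1 lower (median log2 0.65), with sums of 3177 to 3799 CPM in delEx44 and 1865 to 2049 CPM in WT libraries. Col8a1, a short-chain collagen, measured 59.2, 43.3 and 46.1 CPM in delEx44 and 12.5, 10.5 and 11.5 CPM in WT libraries (log2 2.11 ± 0.17, adjusted p = 1.93e-05). Col14a1, Col19a1 and Col5a2 rose by 1.88, 2.16 and 1.16, and the lower member was Col22a1 (log2 -0.68), a collagen of the muscle-tendon junction. Of 28 matrix glycoprotein, proteoglycan and crosslinking genes 22 were higher and 0 lower (median log2 0.67), with Bgn, the proteoglycan biglycan, at 344, 279 and 297 CPM in delEx44 and 114, 105 and 104 CPM in WT libraries (log2 1.51 ± 0.10). Mfap5, Fbln1 and Thbs4 rose by 1.35, 0.98 and 1.10.

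Genes that remodel matrix rose as well. Of 23 matrix proteases and their inhibitors 17 were higher and 0 lower (median log2 0.95). Timp1, an inhibitor of matrix metalloproteinases, measured 11.7, 9.75 and 10.3 CPM in delEx44 and 0.470, 0.498 and 0.852 CPM in WT libraries (log2 4.15 ± 0.31, adjusted p = 1.04e-05). Plaur, the urokinase receptor, and Timp2, another metalloproteinase inhibitor, rose by 2.31 and 0.84. Of 21 genes of TGF-beta, myostatin and fibrosis signalling 14 were higher and 1 lower. The lower one was Mstn, myostatin, which limits muscle mass, at 23, 30.0 and 31.7 CPM in delEx44 and 124, 148 and 145 CPM in WT libraries (log2 -2.3 ± 0.18, adjusted p = 3.08e-05). Ctgf, connective tissue growth factor (now Ccn2), measured 280.1, 248 and 231 CPM in delEx44 and 48.3, 56.8 and 64.3 CPM in WT libraries (log2 2.17), with Ltbp2 and Wisp1 at log2 2.45 and 2.36.

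Of 18 fibro-adipogenic progenitor genes 13 were higher and 0 lower (median log2 0.55). Pdgfra, the receptor that defines these mesenchymal cells, measured 111, 119 and 114 CPM in delEx44 and 76.9, 79.1 and 79.9 CPM in WT libraries (log2 0.55 ± 0.10, adjusted p = 0.00113), and Has2 and Gsn rose by 1.70 and 0.74. Of 15 tendon and cartilage genes 7 were higher and 2 lower, with Prg4 (lubricin) at 182, 192 and 167 CPM in delEx44 and 52.2, 49.8 and 55.6 CPM in WT libraries (log2 1.78), and Cilp and Comp at log2 2.18 and 1.34. The lower members were Col9a1 and Angptl7. These cell type lists moved with the matrix genes, and their part in the matrix results was not tested.

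**Figure D3:**
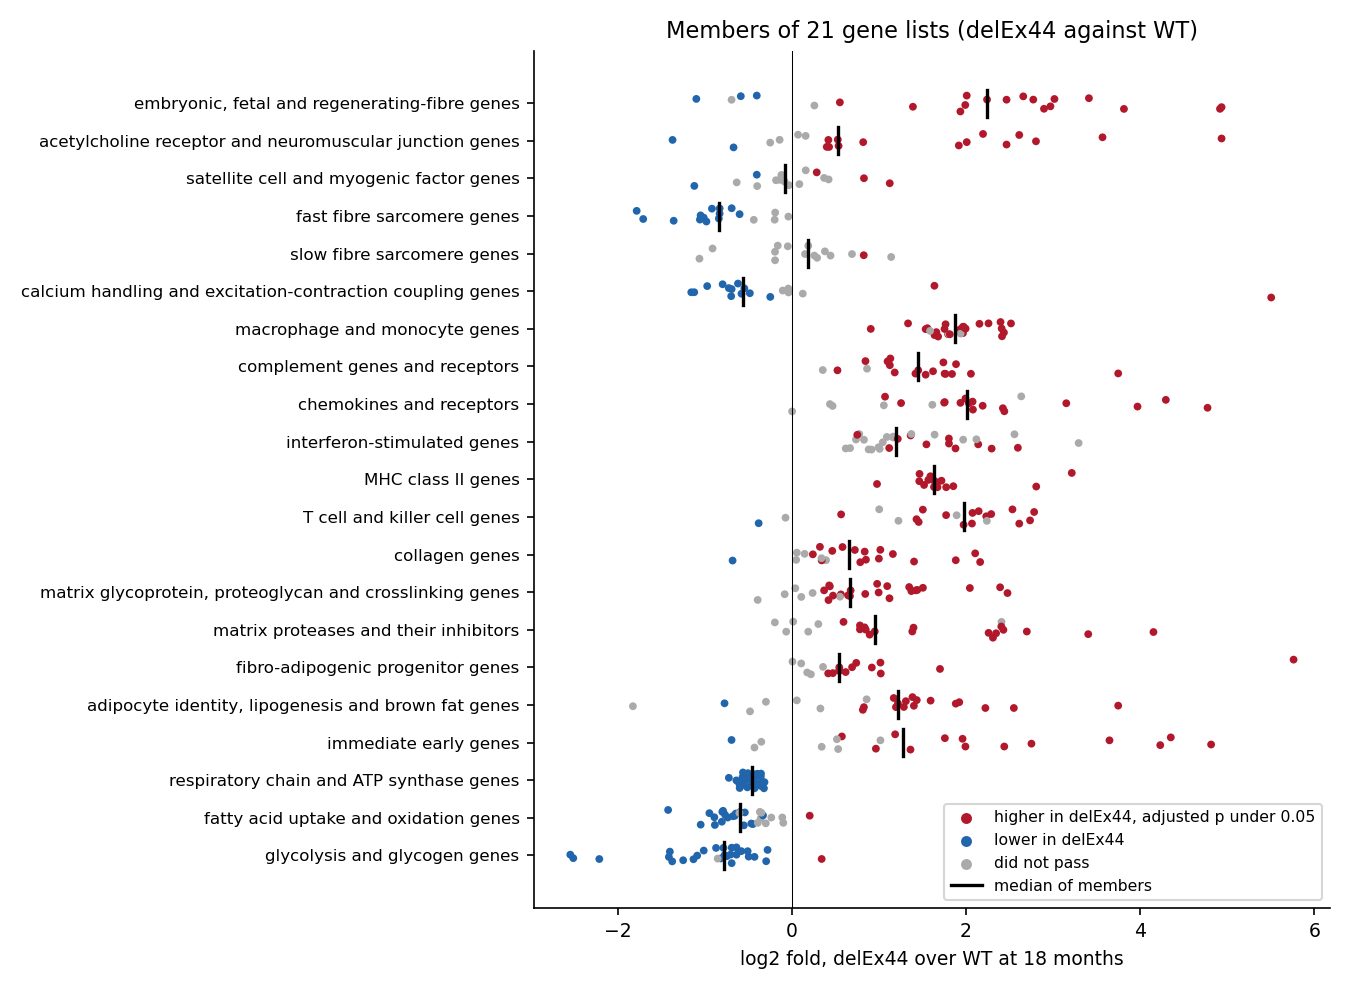
Log2 fold of delEx44 over WT at 18 months for each tested member of 21 gene lists (points, spread vertically for visibility) with the median of each list (bar). Red points were higher and blue points lower in delEx44 at adjusted p under 0.05, grey points did not pass; medians ran from -0.84 for fast fibre genes to 2.24 for embryonic and regenerating-fibre genes.

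Most genes of energy metabolism were lower. All 39 respiratory chain and ATP synthase genes were lower, within a narrow range of -0.72 to -0.31 (median log2 -0.45); with library totals alone 14 were lower. Their summed level was 13270 to 14280 CPM in delEx44 and 19260 to 19760 CPM in WT libraries. Sdha, the flavoprotein of complex II, measured 744, 839 and 801 CPM in delEx44 and 1213, 1224 and 1267 CPM in WT libraries (log2 -0.64 ± 0.08, adjusted p = 0.000166), and Cox5a, Ndufs3 and Ndufa1 fell by 0.59, 0.56 and 0.44 on the log2 scale. Of 25 genes of mitochondrial biogenesis, dynamics and the TCA cycle 16 were lower and 0 higher, or 6 lower and 2 higher with library totals alone. Among them Mfn1, which fuses the outer membrane, Opa1, which fuses the inner one, Idh3a and the citrate synthase gene Cs fell by 0.71, 0.61, 0.69 and 0.64.

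Of 29 fatty acid uptake and oxidation genes 19 were lower and 1 higher (median log2 -0.59; 11 lower with library totals alone). Acadm, the medium-chain acyl-CoA dehydrogenase, measured 304, 320.0 and 315 CPM in delEx44 and 574, 565 and 599 CPM in WT libraries (log2 -0.89), and Acadvl, Lpin1 and Cpt1b fell by 0.88, 1.04 and 0.95. Of 28 glycolysis and glycogen genes 26 were lower and 1 higher (median log2 -0.78). Pygm, the muscle glycogen phosphorylase, measured 2358, 3075 and 2873 CPM in delEx44 and 7586, 7095 and 6819 CPM in WT libraries (log2 -1.37 ± 0.11, adjusted p = 1.43e-05). Its kinase subunits Phkg1 and Phkb fell by 1.25 and 1.13, and Ppp1r3a, which holds the glycogen phosphatase on glycogen, by 1.40. The single riser was Gbe1, the glycogen branching enzyme (log2 0.34).

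Adipocyte genes were higher in old delEx44 muscle. Of 23 genes of adipocyte identity and lipogenesis 16 were higher and 1 lower (median log2 1.22), and the summed level was 13070, 9533 and 11170 CPM in delEx44 and 5622, 6081 and 6422 CPM in WT libraries. Thrsp, a regulator of lipogenesis, measured 54.4, 42.7 and 50.6 CPM in delEx44 and 16.9, 15.7 and 16.3 CPM in WT libraries (log2 1.59 ± 0.09, adjusted p = 3.21e-06). Retn, encoding the adipocyte hormone resistin, measured 45.5, 33.4 and 37.1 CPM in delEx44 and 9.66, 9.70 and 11.3 CPM in WT libraries (log2 1.92 ± 0.14). Pparg, the master regulator of fat cell differentiation, and Lipe, hormone-sensitive lipase, rose by 1.40 and 0.82. No library of one genotype reached the other for these 4 genes. Lep, the adipocyte hormone leptin, went the other way without passing: 37.1, 15.2 and 31.1 CPM in delEx44 and 95.1, 79.2 and 121 CPM in WT libraries (log2 -1.82 ± 0.80, adjusted p = 0.0962). The lower member was Slc2a4, the insulin-dependent glucose transporter that muscle fibres also use (log2 -0.77).

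This was opposite to 4 weeks, where 51.2% of 14937 genes tested passed, 24.2% higher and 27% lower in delEx44. At that age 1 of 24 adipocyte genes tested was higher and 13 lower (median log2 -1.09), with sums of 2066, 2687 and 2554 CPM in delEx44 and 4126, 3787 and 7205 CPM in WT libraries. The highest of these was WT replicate 3, the library with cartilage and red cell transcripts, and delEx44 also lay below the other two WT libraries. Without it 1 gene was higher and 8 lower at 4 weeks (median log2 -0.57). Tested directly, the genotype difference at 18 months exceeded that at 4 weeks for 15 of 24 adipocyte genes and fell short of it for 0 (median log2 1.94), where 7.02% of all genes tested passed upward and 3.91% downward. Without 4-week WT replicate 3 the counts were 11 and 0 and the median was 1.35. For Thrsp the difference between the ages was 2.69 ± 0.28 (adjusted p = 6.74e-05), for Retn 3.18 ± 0.64 (adjusted p = 0.00664), for Lipe 1.82 ± 0.34 and for Pparg 1.35 ± 0.18. Without 4-week WT replicate 3 these differences were 2.44 for Thrsp, 2.35 for Retn, 1.39 for Lipe and 1.31 for Pparg, and all 4 passed.

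**Figure D4:**
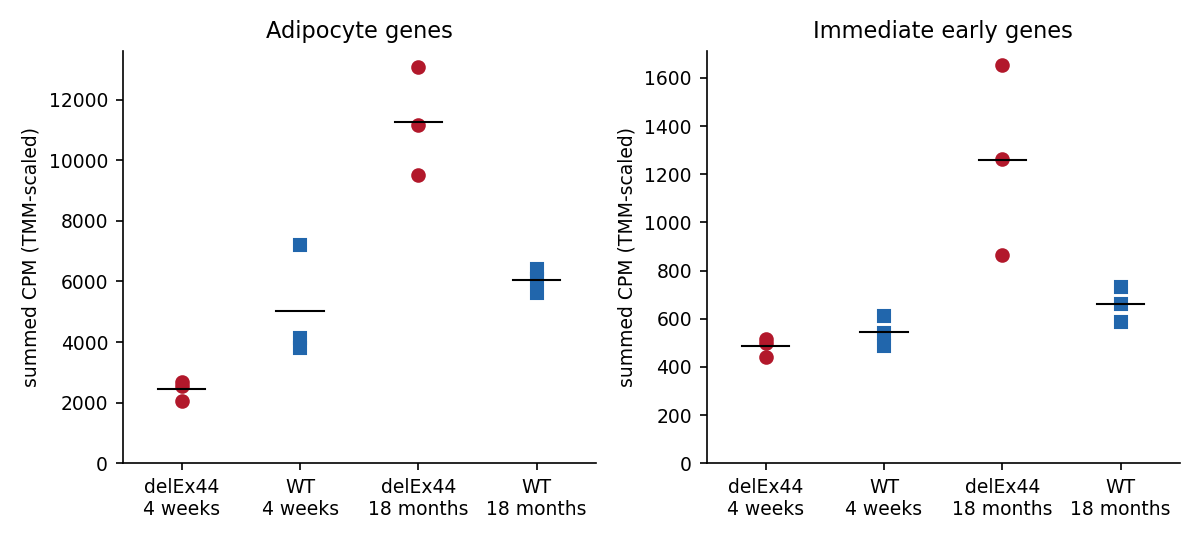
Summed CPM of adipocyte genes (left) and of immediate early genes (right) in each library, with delEx44 (circles) left of WT (squares) at 4 weeks and at 18 months and a bar at each mean. Adipocyte sums at 18 months were 9533 to 13070 CPM in delEx44 and 5622 to 6422 CPM in WT libraries, while at 4 weeks all 3 delEx44 libraries, at 2066 to 2687 CPM, lay below the WT libraries.

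Immediate early genes, largely transcription factor genes that cells switch on within minutes of a stimulus, were raised at 18 months. Of 20 genes 13 were higher and 1, Jun, lower (median log2 1.28). Myc measured 52.3, 31.0 and 40.2 CPM in delEx44 and 7.49, 7.77 and 7.48 CPM in WT libraries (log2 2.44 ± 0.19, adjusted p = 1.86e-05). Maff measured 20.4, 17.5 and 17.7 CPM in delEx44 and 4.85, 6.21 and 5.35 CPM in WT libraries (log2 1.76), and Fosl2 181, 119 and 138 CPM in delEx44 and 37.0, 45.2 and 30.0 CPM in WT libraries (log2 1.96). Within delEx44 these transcripts were uneven, with replicate 1 the highest and replicate 2 the lowest for Myc and Fosl2 and for the list's sum of 1652, 864 and 1261 CPM. Egr2, one of the 20 and also a regulator of Schwann cells, showed the same order at 62.0, 20.2 and 39.6 CPM in delEx44, against 2.03, 2.09 and 1.80 CPM in WT libraries. Fosl1 had few WT counts and read 1.98, 3.39 and 1.40 CPM in delEx44 and 0.0724, 0.0996 and 0.0474 CPM in WT libraries. At 4 weeks 2 of the 20 were higher and 1 lower (2 and 3 without WT replicate 3 of that age), and the difference between the ages passed upward for 6 (4 without 18-month delEx44 replicate 1) and downward for 0, among them Myc (2.00 ± 0.30, adjusted p = 0.000643) and Maff (1.92 ± 0.21, adjusted p = 4.25e-05).

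Senescence and cell cycle genes were mixed. Of 22 genes of the Cdkn2a and p53 programmes 10 were higher, 7 of them by at least 1 log2 unit, and 2 lower. Cdkn2a was among the 10 higher genes. The 2 lower members were the p53 targets Sesn1 (log2 -1.10) and Ccng1 (log2 -0.67). Ccng1 measured 1164, 1376 and 1360 CPM in delEx44 and 1825, 2046 and 2317 CPM in WT libraries. Of 30 cell cycle genes 15 were higher and 4 lower, or 9 higher without WT replicate 1 or WT replicate 2 and 21 higher with library totals alone. Rrm2, the ribonucleotide reductase subunit of DNA synthesis, measured 9.73, 8.76 and 8.88 CPM in delEx44 and 1.52, 1.26 and 1.75 CPM in WT libraries (log2 2.60), and Mcm6 and Pcna rose by 1.02 and 0.40. Aurka, a mitotic kinase, fell: it measured 1.89, 2.14 and 2.06 CPM in delEx44 and 10.1, 11.3 and 9.23 CPM in WT libraries (log2 -2.33 ± 0.14, adjusted p = 3.75e-06). Tpx2, which activates Aurora A on the spindle, moved with it at 2.60, 3.42 and 3.46 CPM in delEx44 and 15.5, 14.2 and 17.0 CPM in WT libraries (log2 -2.3 ± 0.16).

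Stress and protein turnover lists held members of both directions, where 28.8% of all genes tested were higher and 23.8% lower. Of 21 genes of the integrated stress response, serine synthesis and polyamines 11 were higher and 4 lower, with Asns, asparagine synthetase, at 11.1, 10.7 and 11.2 CPM in delEx44 and 3.18, 3.15 and 3.55 CPM in WT libraries (log2 1.74) and with Psat1, Phgdh and Sat1 at log2 1.05, 1.37 and 0.81. Of 22 metallothionein and antioxidant genes 12 were higher and 2 lower; Hmox1 (heme oxygenase), Ftl1 (ferritin light chain) and Sod3 (the extracellular superoxide dismutase) rose by 1.52, 1.22 and 0.69, and Sod2 (the mitochondrial enzyme) fell by 0.83. Of 20 heat shock and unfolded protein response genes 11 were higher and 2 lower, among them Hsp90aa1, Hspa5 and Pdia6 (log2 0.93, 0.50 and 0.46). Of 21 cathepsin and lysosomal genes 15 were higher and 2 lower, with Ctsl, Ctsk and Lamp2 up (log2 0.68, 2.35 and 0.67) and Gaa, acid alpha-glucosidase, down (log2 -0.74). Of 22 atrophy, FoxO, autophagy and calpain genes 4 were higher and 9 lower (8 and 7 with library totals alone), including Capn3, the muscle calpain, at 93.1, 98.3 and 98.3 CPM in delEx44 and 195, 206 and 193 CPM in WT libraries (log2 -1.04), and Tfeb (log2 -0.97).

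The remaining lists held calls in both directions or none. Over all genes tested 28.8% were higher and 23.8% lower. The higher ribosomal protein genes, the lower endothelial genes and both directions of the Schwann cell genes were counted near these shares. Of 30 ribosomal protein genes 11 were higher and 2 lower, from 4 to 27 higher across the alternatives; Rpl3 (log2 1.17), Rpl19 (log2 0.31) and Rps19 (log2 0.32) were higher, and Rpl15 (log2 -0.24) was lower but read 0.07 with library totals alone. Of 25 endothelial, pericyte and smooth muscle genes 2 were higher and 6 lower (7 and 3 with library totals alone; 3 lower without delEx44 replicate 1), with Abcc9, Vegfa and Flt1 down (log2 -0.81, -0.63 and -0.61) and Apln up (log2 1.01). Of 15 Schwann cell and myelin genes 3 were higher and 3 lower, and the list's median was -0.19 on the log2 scale. The counts were 6 and 0 with library totals alone, and 0 to 1 were lower without any 1 library. The higher members were Pmp22, Ngfr and Egr2 (log2 0.63, 1.30 and 4.35). Of 18 circadian clock genes 1, Per2, was higher and 7 lower (3 and 3 with library totals alone, 11 lower with delEx44 and WT libraries alone). Without any 1 delEx44 or WT library, and with RLE or upper-quartile scaling or by DESeq2, 0 clock genes were higher. Those lower included Arntl, Bhlhe41 and Tef (log2 -1.01, -0.70 and -0.31). Among 3 red cell genes tested 0 passed (2 with delEx44 and WT libraries alone) and Alas2 read 17.0, 11.3 and 18.6 CPM in delEx44 and 9.26, 10.6 and 6.54 CPM in WT libraries, and among 4 sex-linked genes 0 passed, with Ddx3y at log2 -0.24.

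Most genotype differences were present at 4 weeks already. Of the 4131 genes higher at 18 months, 2448 (59.3%) were also higher at 4 weeks, which is 70.8% of the 3456 higher at 4 weeks. Of the 3418 lower at 18 months, 2561 (74.9%) were lower at 4 weeks, 64% of the 4003 lower at 4 weeks. Over all genes tested at 4 weeks, 24.2% were higher and 27% lower. Opposite calls were few: 177 genes were higher at 18 months and lower at 4 weeks, and 28 the reverse. Without 4-week WT replicate 3, these were 135 and 25, with 2329 genes higher and 2529 lower at both ages. The genotype difference itself differed between the ages for 1632 genes (10.9%), of which 1048 had the more positive difference at 18 months and 584 the more negative; 64.2% were thus upward with TMM, 53.8% with upper-quartile scaling and 47.5% with library totals alone. Age and table cannot be told apart.

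The clearest upward difference was Actc1, cardiac actin, which developing skeletal muscle also makes. At 18 months it measured 244, 326 and 316 CPM in delEx44 and 37.8, 35.5 and 36.2 CPM in WT libraries (log2 3.02 ± 0.24), and at 4 weeks it averaged 3217 CPM in delEx44 and 7485 CPM in WT libraries (log2 -1.22). The difference between the ages was 4.20 ± 0.29 (adjusted p = 1.91e-06). WT muscle held far less of this transcript at 18 months than at 4 weeks, though levels of the 2 ages come from separate tables. Slc1a3, a glutamate transporter, also turned: at 18 months it measured 61.5, 61.9 and 56.2 CPM in delEx44 and 6.80, 9.13 and 7.62 CPM in WT libraries, at 4 weeks it averaged 5.37 CPM in delEx44 and 14.9 CPM in WT libraries (difference between the ages 4.36 ± 0.36, adjusted p = 1.75e-05). Uchl1, a ubiquitin hydrolase abundant in neurons, measured 42.3, 36.3 and 35.1 CPM in delEx44 and 3.29, 3.79 and 3.22 CPM in WT libraries at 18 months, and its log2 rise of 3.46 exceeded the 1.33 at 4 weeks. Hpgd, which inactivates prostaglandin E2, rose by 2.58 at 18 months and by 0.46 at 4 weeks (difference 2.08 ± 0.20). Lrrn4cl, Rap1gap2, Uap1 and Cxcl14 made up the 8 (differences of 2.00, 1.69, 0.92 and 1.39).

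In the other direction, Tpx2 was lower at 18 months but higher at 4 weeks, when it averaged 19.3 CPM in delEx44 and 9.93 CPM in WT libraries (difference -3.29 ± 0.26, adjusted p = 4.79e-06). Aurka averaged 9.36 CPM in delEx44 and 10.8 CPM in WT libraries at 4 weeks, where it did not pass (difference -2.17 ± 0.20). Slc8a1, the sodium-calcium exchanger, measured 21.3, 25.0 and 23.6 CPM in delEx44 and 63.4, 64.8 and 68.2 CPM in WT libraries at 18 months and differed between the ages by -1.36 ± 0.11 (adjusted p = 4.79e-06). The ubiquitin ligase genes Mib1 and Asb2 showed differences of -1.49 and -1.69, and at 18 months Asb2 measured 106, 128 and 128 CPM in delEx44 and 579, 534 and 504 CPM in WT libraries. For Peg10 the 18-month groups overlapped (4.85, 5.15 and 5.99 CPM in delEx44, 5.43, 5.51 and 5.45 CPM in WT libraries), and the difference of -1.97 came from 4 weeks, where delEx44 averaged 13.0 CPM and WT 3.48 CPM. Asb4 and Fgfbp1, both among the largest falls, differed by -3.26 and -3.80. The difference between the ages was negative for 2 of 26 macrophage genes and 7 of 21 cathepsin and lysosomal genes and positive for 0 and 1. Among 16 lipid-associated phagocyte genes this difference was negative for 7 and positive for 1. Of the 21 embryonic and regenerating-fibre genes, 6 had a negative and 3 a positive difference. Over all genes tested, 3.91% passed with a negative and 7.02% with a positive difference, and the macrophage count lay near the first share. Leaving out 1 library left 0 or 1 macrophage genes and 3 to 7 cathepsin and lysosomal genes with a negative difference, the lowest for the second list being 3 without WT replicate 1 at 18 months, among others.

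**Figure D5:**
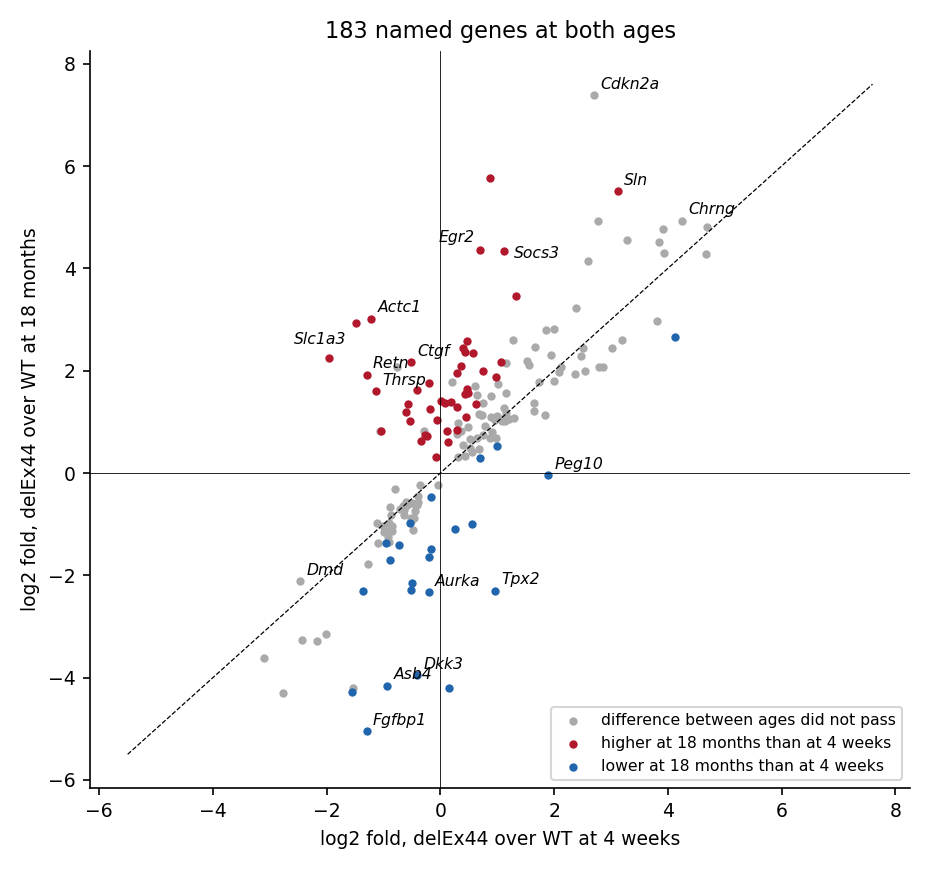
Log2 fold of delEx44 over WT at 4 weeks (horizontal) and at 18 months (vertical) for 183 named genes, with the line of equal differences dashed. Red points had a more positive and blue points a more negative difference at 18 months than at 4 weeks at adjusted p under 0.05; Actc1 lies at -1.22 and 3.02 and Tpx2 at 0.96 and -2.3.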

How the data were processed

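The deposited tables hold raw read counts per gene symbol, made by the authors with HTSeq per the submitters' processing notes, which also name the build mm10, STAR 2.7.2b, Trim Galore, SAMtools 1.9, edgeR and Bowtie2 2.3.4.3. Per the labels' protocols, TruSeq libraries were made from polyadenylated RNA of miRNeasy extracts. The labels do not state how the counting used strand, so reads of overlapping or antisense genes, and of near-identical copies such as ribosomal protein, MHC and haemoglobin genes, may be shared or split. The 5 HTSeq records that name no gene were removed. They held 42.2% to 42.3% of counted reads in delEx44 and 44% to 48.3% in WT libraries at 18 months. Gene counts ran from 23125930 to 31254175 per 18-month library. The tables hold 6 columns that match no sample here, and these were not used. WT columns 1 and 2 at 18 months match the WT group but no single sample.

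Counts were fitted with edgeR 4.0.16 in R 4.3.3 (TMM factors, filterByExpr, robust quasi-likelihood F-test, Benjamini-Hochberg adjustment over all genes tested, threshold 0.05), on the 9 libraries of the 18-month table. The age difference was the contrast of delEx44 minus WT at 18 months minus the same at 4 weeks, over 18 sedentary libraries. CPM values use library sizes after TMM scaling. Each ± or SE of a log2 value is that value divided by the square root of its F statistic, an approximate standard error. It draws on the spread of all libraries in the fit, corrected ones included, and is not the spread of delEx44 and WT libraries alone. Alternatives were RLE and upper-quartile factors, no filter on low counts, DESeq2 1.42.0, limma-voom 3.58.1, removal of Rn45s, delEx44 and WT libraries only, each delEx44 and each WT library left out in turn, replicate numbers as a block and, added after the data were seen, library totals alone and the 4-week comparison without WT replicate 3. The scripts were tested on simulated data.

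Members and gene lists were chosen with earlier results of these data known. Named genes were Dmd, Utrn and Rn45s, the 12 genes that rose most and the 12 that fell most among called, non-overlapping genes with a mean of at least 5 CPM, up to 4 called members with the smallest p in each of 43 lists, and 8 genes in each direction for age. Members that moved against their list, and Acta1, Chrnb1, Chrne, Lep, Pax7, Pln, Slc4a1 and Col2a1, were named after their values were seen. Of the genes picked, 7 are not reported here. Gene positions are from GENCODE vM21 on GRCm38.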

Additional observations from a re-analysis of the deposited data

Results flagged for a closer look

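Of the 184 named genes reported, 67 had a delEx44 minus WT difference that differed between 18 months and 4 weeks by a direct test of that difference (edgeR quasi-likelihood test, adjusted p under 0.05, 3 libraries in each of 4 groups). The difference was more positive at 18 months for 44 and more negative for 23, and 10 passed in opposite directions at the 2 ages. Of these 10, Retn and Lyve1 did not pass at 4 weeks without WT replicate 3 of that age. They then read log2 -0.46 (adjusted p = 0.314) and -0.56 (adjusted p = 0.0536) by the same test. Cxcl14 then passed as lower at 4 weeks (log2 -0.26, adjusted p = 0.0446). The named genes included 8 in each direction chosen by this same test, and most others were chosen by their values at 18 months. These counts therefore follow in part from the choice. Over all 14937 genes tested, 10.9% differed between the ages, 7.02% more positive and 3.91% more negative at 18 months. Values below are log2 differences, 18 months minus 4 weeks.

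Among adipocyte, lipid and hormone genes the differences were 3.18 for Retn, 2.69 for Thrsp, 1.82 for Lipe and 1.35 for Pparg. Among genes of muscle and nerve they were 4.20 for Actc1, 2.34 for Sln, 2.10 for Uchl1, 1.21 for H19, 0.97 for Ngfr, 0.93 for Pmp22 and 0.37 for Utrn. Transcription and signalling genes gave 3.61 for Egr2, 3.18 for Socs3, 2.00 for Myc, 1.92 for Maff, 1.62 for Fosl2 and 0.67 for Xbp1.

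Matrix, protease and progenitor genes gave 4.86 for Has1 (4.10, adjusted p = 0.067, without 4-week WT replicate 3), 2.64 for Ctgf, 1.9 for Wisp1, 1.88 for Comp, 1.06 for Col19a1, 0.97 for Gsn, 0.86 for Col14a1, 0.68 for Mfap5 and 0.51 for Timp2. Immune genes gave 4.18 for Ms4a1 (1.29, adjusted p = 0.671, without 4-week WT replicate 3), 1.76 for Lyve1, 1.74 for Ctsk, 1.39 for Cxcl14, 1.24 for Igf1, 0.43 for Gas6, 1.06 for C2 and 0.62 for Serping1. The mast cell genes Tpsb2, Cpa3, Kit and Cma1 gave 1.17, 1.13, 1.07 and 1.05. The other more positive values were 4.36 for Slc1a3, 2.08 for Hpgd, 2.00 for Lrrn4cl, 1.69 for Rap1gap2, 1.51 for Apln and 0.92 for Uap1.

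More negative at 18 months were the fibre genes Dag1 (-0.35), Itga7 (-0.44), Scn4a (-0.46), Mylk2 (-0.86), Myh8 (-1.50), Nos1 (-1.81), Mstn (-0.98) and Ppp1r3a (-0.71). So were Tfeb (-0.48), of the atrophy, FoxO, autophagy and calpain list, and Cd63 (-0.49), of the lipid-associated phagocyte list. The p53 target Sesn1 (-1.39), the clock gene Arntl (-1.59) and the mitotic genes Aurka (-2.17) and Tpx2 (-3.29) were more negative too. The remaining values were -1.36 for Slc8a1, -1.49 for Mib1, -1.69 for Asb2, -1.97 for Peg10, -2.77 for Exph5, -3.26 for Asb4, -3.58 for Dkk3, -3.80 for Fgfbp1 and -4.40 for Tph2. Tph2 did not pass in 15 of 20 alternatives.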

How the results depend on the processing

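Library totals alone gave 7465 genes higher and 1301 lower in delEx44 at 18 months, against 4131 and 3418 with TMM, and moved the median of all genes to 0.35; Rpl15 then read 0.071, not past the threshold, against -0.24. Fitting delEx44 and WT libraries alone gave 4489 genes higher and 4137 lower of 14197 tested at 18 months, with a median of 0.0133 over all genes. Leaving out 1 library gave 3232 to 3726 genes higher and 2717 to 3161 lower at 18 months. For the age difference it gave 739 to 941 genes more positive and 364 to 503 more negative, the lowest negative counts being 364 without WT replicate 2 and 379 without delEx44 replicate 1 of 18 months. Of 187 named genes that passed at 18 months, 176 passed in the same direction under every alternative run; those that did not pass under at least 1 included Calcr, Ccl7, H2-Q4, Has1, Ndufa1, Oxtr, Sdc4, Tef and Tph2. Of 69 that passed for age among all 191 picked, 49 passed under every alternative run. The 20 that did not were Apln, C2, Cd63, Col19a1, Dag1, Gas6, Has1, Itga7, Kit, Ms4a1, Mstn, Myh8, Mylk2, Ngfr, Scn4a, Serping1, Tfeb, Timp2, Tph2 and Utrn. Several of them failed in most of the 20 alternatives: Tph2 in 15, Serping1 in 14, Timp2 in 13, and Col19a1 and Ngfr in 11 each. Without 4-week WT replicate 3, the age difference passed upward for 1 B cell gene (2 with it) and 2 circadian genes (5 with it). The cause was not tested for any of these. With the numbers of the 18-month columns as a replicate block, 3899 genes were higher and 3222 lower, and no named gene that passed lost its call. Deviations of same-numbered delEx44 and WT libraries correlated across genes at 0.05, 0.0724 and 0.0375, and those of differently numbered libraries at -0.0958 to 0.0455. Whether same-numbered libraries share more than a number was not tested. Genes with few WT counts, such as Cdkn2a, are limited by depth.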
